A study of Mus musculus with 2 samples.

Results

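The miR-221/miR-222 cluster is a pair of neighbouring miRNA hairpins on the X chromosome, and its 4 mature miRNAs, the 3p and the 5p arm of each hairpin, were described in unstimulated macrophages. The members were chosen by name: mmu-miR-221-3p, mmu-miR-221-5p, mmu-miR-222-3p and mmu-miR-222-5p, which are 4 of the 1915 mature miRNA names in the count table. Small RNA was sequenced from BMDMs, macrophages grown in culture from bone marrow, of wild type mice with the strain background C57/BL6 at 8 weeks of age. The cells received no stimulus, and both libraries, replicates 1 and 2, belong to this single condition. The library totals were 7322969 counts (replicate 1) and 8094314 counts (replicate 2). The sample labels call the libraries biological replicates, but nothing states whether the cultures came from separate animals. A p-value between them therefore compares these libraries, not conditions. It weighs their difference against counting error alone and does not measure the spread between replicates, which may be technical.

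A miRNA hairpin is cut from a longer primary transcript, and Dicer then releases a short duplex of its 5p and 3p arms. Usually the strand of a single arm, the guide, is kept in an Argonaute protein and pairs through its seed, the bases near its 5′ end, with target mRNAs, while the other strand is mostly degraded. miR-221 and miR-222 come from a common primary transcript, and their 3p guides are known for repressing the cell cycle inhibitor Cdkn1b and, in haematopoietic and endothelial cells, the receptor Kit.

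The mature sequences are shown because the 3p guides have the same seed and differ elsewhere. RefSeq (GRCm38.p6) gave a mature sequence for 3 of the 4 members. Each is written 5′ to 3′ with the seed, bases 2 to 8, in capitals, followed by the other name in the table that has the seed of the 3p guides.
mmu-miR-221-3p: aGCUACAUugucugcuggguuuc
mmu-miR-222-3p: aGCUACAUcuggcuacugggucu
mmu-miR-221-5p: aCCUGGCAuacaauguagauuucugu
mmu-miR-1928: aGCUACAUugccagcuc
miR-221-3p (chrX:19146307-19146329) and miR-222-3p (chrX:19146901-19146923) both had 23 bases and were identical over the first 8. Beyond the seed they diverged, with 12 mismatches in an ungapped alignment of the 23 positions, so that 47.8% of the positions were identical and no shared run exceeded 8 bases. miR-1928, on the minus strand of chromosome 1 (chr1:74206562-74206578), matched miR-221-3p at 14 of 17 positions. It had 0 counts in both libraries, which allows a share of up to 4.10e-05% in replicate 1 and 3.71e-05% in replicate 2, so among names with a sequence the detected reads with this seed came from the cluster. miR-221-5p (chrX:19146344-19146369) had a seed found under no other name with a sequence. With 26 bases it was long for a miRNA: among 468 names with a sequence and at least 10 counts summed, the median length was 22 bases and 4 names had at least 26. The 3 sequences begin with A, as did 25.4% of the dominant arms of 138 hairpins, while 50% of those arms began with U.

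The hairpins are shown with the annotated mature arms in capitals, to place the arms within each precursor.
Mir221: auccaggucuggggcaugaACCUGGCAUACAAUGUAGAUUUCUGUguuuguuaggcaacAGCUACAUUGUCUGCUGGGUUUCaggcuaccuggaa
Mir222: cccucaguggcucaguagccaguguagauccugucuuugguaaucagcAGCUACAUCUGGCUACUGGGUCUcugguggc
Both lie on the minus strand of chromosome X of GRCm38, Mir221 at chrX:19146294-19146388 with 95 bases and Mir222 at chrX:19146893-19146971 with 79 bases. On this strand Mir222 comes first, and 504 bases separate it from Mir221. In the GENCODE annotation 0 other genes overlap the hairpins. The nearest gene upstream is Gm14636, a processed transcript on the same strand, 10009 bases away. The longest run shared by the hairpins had 9 bases, and beside miR-1928 the closest names that align over at least 18 positions differed from miR-221-3p at 6 of 21 positions and from miR-222-3p at 6 of 18. In the counts, 0 other names held the same pair of values as any member.

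The 3p guides were abundant miRNAs in unstimulated BMDMs, and the 5p arms were much rarer. Shares are percentages of the library total, with 95% Wilson intervals. These intervals treat each read as independent and reflect counting error alone. The reads were amplified by PCR and carry no molecular identifiers, so the error in molecules may be larger. In bulk RNA, a lower level in each cell and fewer cells that express a miRNA cannot be told apart. miR-221-3p, the most abundant member, had 48236 counts in replicate 1, a share of 0.659% (0.653 to 0.665). In replicate 2 it had 43679 counts and a share of 0.540% (0.535 to 0.545). Its mean share was 0.599% ± 0.0842 (SD, n = 2), rank 22 among all names. miR-222-3p, the partner guide, had 27415 counts in replicate 1, a share of 0.374% (0.370 to 0.379). In replicate 2 it had 38568 counts and a share of 0.476% (0.472 to 0.481). The partner guide was thus the lower of the pair in both libraries, and the pair lay closer together in replicate 2. Its mean share was 0.425% ± 0.0722 (SD, n = 2), rank 28, and the gap between the mean shares of the guides was larger than the SD of either. miR-221-5p had 4731 counts (0.0646%, 0.0628 to 0.0665) in replicate 1 and 7562 counts (0.0934%, 0.0913 to 0.0956) in replicate 2. With a mean of 0.0790% ± 0.0204 (SD, n = 2) it ranked 71, well inside the detected range for an arm that is usually discarded. miR-222-5p was the rarest member, with 464 counts (0.00634%, 0.00579 to 0.00694) in replicate 1 and 417 counts (0.00515%, 0.00468 to 0.00567) in replicate 2. Its mean was 0.00574% ± 0.000838 (SD, n = 2), rank 181. The order of the 4 members was the same in both libraries.

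**Figure D1:**
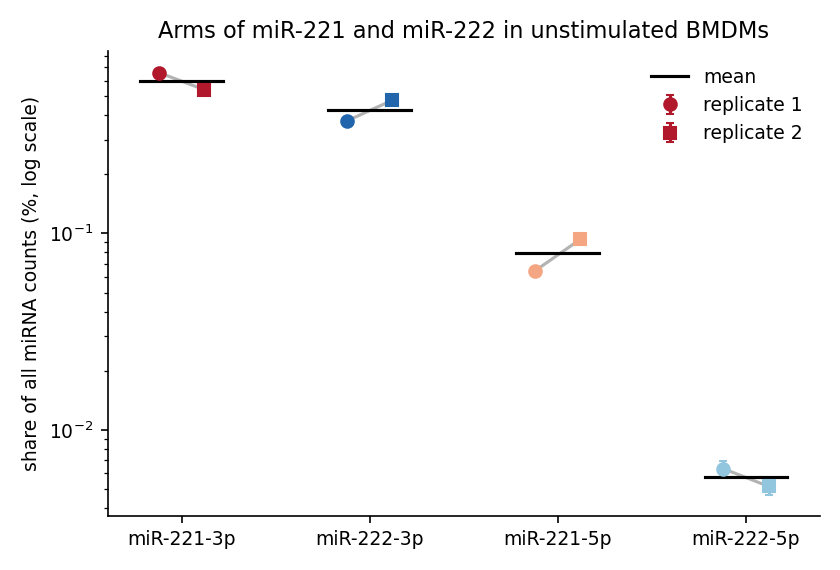
Share of all miRNA counts (percent, log scale) of the 4 arms in replicate 1 (circles) and replicate 2 (squares), with 95% Wilson intervals and black lines at the means. The 3p guides lie close together at means of 0.599% and 0.425%, while the 5p arms lie apart at 0.0790% and 0.00574%.

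Together the 4 members held 1.10% of the counts in replicate 1 and 1.11% in replicate 2, a mean of 1.11% ± 0.00755 (SD, n = 2). Within this sum, miR-221-3p made up 59.7% in replicate 1 and 48.4% in replicate 2, and miR-222-3p 33.9% and 42.7%. miR-221-5p added 5.85% and 8.38%, and miR-222-5p 0.574% and 0.462%. The make-up of the cluster thus differed between the libraries. miR-21a-5p, the most abundant miRNA of the libraries, held 28.0% and 25.7% of all counts, which was 25.3-fold and 23.1-fold the sum of the 4 members. On the X chromosome, 157 names have their hairpins on this chromosome alone and 64 of them had counts in both libraries. The 4 members supplied 38.7% of the X-linked counts in replicate 1 and 40.4% in replicate 2, a mean of 39.5% ± 1.22 (SD, n = 2). miR-221-3p led the X-linked names in both libraries. By mean share miR-223-3p, a myeloid miRNA with 0.605% and 0.448%, came next and then miR-222-3p, but in replicate 2 miR-222-3p was the higher of this pair. miR-351-5p (0.220% and 0.230%) and miR-98-5p (0.183% and 0.164%) followed by mean share. In replicate 2, however, miR-532-5p (0.159% and 0.185%), the next by mean share, was above miR-98-5p.

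Several neighbours in the order of mean shares could not be separated from the members. miR-92a-3p, just above miR-221-3p, had 0.644% in replicate 1 and 0.601% in replicate 2, so it was the lower of the pair in replicate 1 and the higher in replicate 2. miR-340-5p (0.686% and 0.640%) was above miR-221-3p in both libraries, and miR-223-3p and miR-27a-3p (0.534% and 0.517%) were below it in both. All 4 of these mean shares were within the SD of miR-221-3p. Around miR-222-3p, the order changed between the libraries for miR-142a-3p (0.601% and 0.363%), miR-29a-3p (0.464% and 0.422%) and miR-125a-5p (0.386% and 0.443%). Only miR-140-3p (0.372% and 0.431%) among its 4 neighbours kept its place below it. For miR-221-5p the order changed against miR-425-5p, miR-151-5p and miR-652-3p but not against miR-744-5p, and for miR-222-5p it changed against miR-92a-1-5p, miR-378a-5p, miR-8114 and miR-139-5p.

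**Figure D2:**
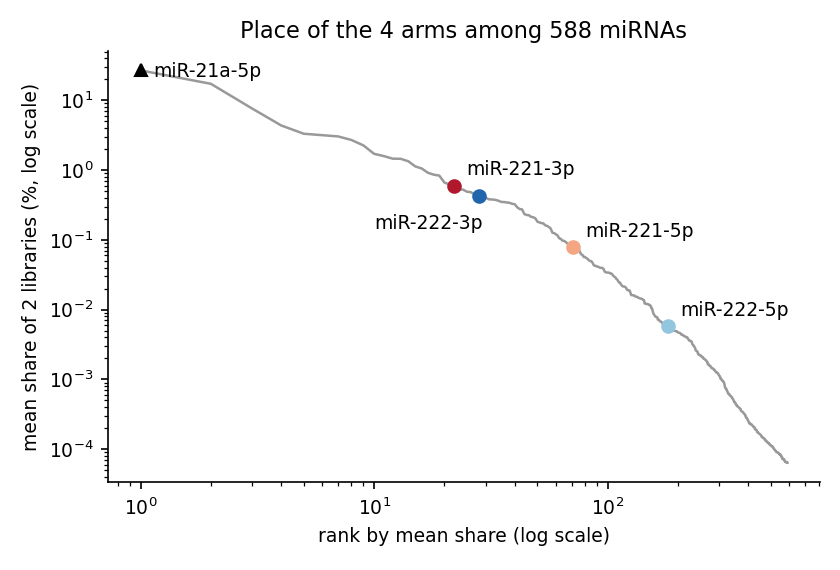
Mean share over both libraries (percent, log scale) against rank (log scale) for the 588 miRNAs with at least 10 counts summed, as a grey line. The members (coloured points) stand at ranks 22, 28, 71 and 181, below miR-21a-5p (triangle) at rank 1.

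The ratio of the partners compares both hairpins within a library and needs no scaling. The count of miR-221-3p was 1.76 times that of miR-222-3p in replicate 1 (95% interval 1.73 to 1.79) and 1.13 times in replicate 2 (1.12 to 1.15). miR-221-3p was the higher guide in both libraries, and the exact binomial test of both counts, two-sided, gave p = 4.62e-71 in replicate 2, while p in replicate 1 was below the smallest number the computation holds. The mean ratio was 1.45 ± 0.443 (SD, n = 2), so its distance from 1 was about the size of the SD. The ratio in replicate 2 was 0.644 times that in replicate 1 (0.631 to 0.657), and by Fisher's exact test p was again below the smallest number held. The 5p arms were further apart and shifted the other way. miR-221-5p exceeded miR-222-5p 10.2-fold (9.27 to 11.2) in replicate 1 and 18.1-fold (16.4 to 20.01) in replicate 2, a mean of 14.2 ± 5.61 (SD, n = 2). The 5p ratio in replicate 2 was 1.78 times that in replicate 1 (1.55 to 2.04; Fisher's exact test, p = 2.11e-16). With both arms of each hairpin summed, the ratio of miR-221 to miR-222 was 1.90 in replicate 1 and 1.31 in replicate 2, a mean of 1.61 ± 0.414 (SD, n = 2). The ratio of the hairpins thus followed that of the guides, and in replicate 2 it was 0.692 times that in replicate 1 (Fisher's exact test, p = 2.88e-299).

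Compared with other neighbouring hairpins, the guides of miR-221 and miR-222 were close to equal. On the same strand and at most 10 kb apart, 32 hairpin pairs had at least 100 counts for the dominant arm of each hairpin, and their median ratio of the more abundant to the less abundant arm was 5.34. By the mean of the log2 ratios of both libraries, 3 pairs were closer to 1 than miR-221-3p over miR-222-3p: miR-497a-5p over miR-195a-5p (1.13 and 1.07), miR-27a-3p over miR-23a-3p (1.29 and 1.49) and miR-19a-3p over miR-18a-5p (1.11 and 1.75). By the mean ratio 4 pairs were closer, the other being miR-466p-3p over miR-467d-3p (1.22 and 1.64), named after its values were seen. In 3 of the 32 pairs, this last among them, an arm held the same counts as another name in the table, and without these 3 the count was 3 by either measure and the median ratio 5.69. The place depended on the library, with 6 pairs closer in replicate 1 and 1 in replicate 2. In 6 pairs, that of miR-221-3p and miR-222-3p among them, the ratio was within 2-fold in both libraries. The widest gaps were those of miR-351-5p over miR-503-5p (350.3 and 300.7), miR-322-5p over miR-503-5p (126 and 117) and miR-532-5p over miR-188-5p (24.7 and 53.2). Between the libraries, the ratio of miR-221-3p to miR-222-3p changed by -0.64 on the log2 scale, against a median absolute change of 0.48 over the 32 pairs, and 10 pairs changed more.

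**Figure D3:**
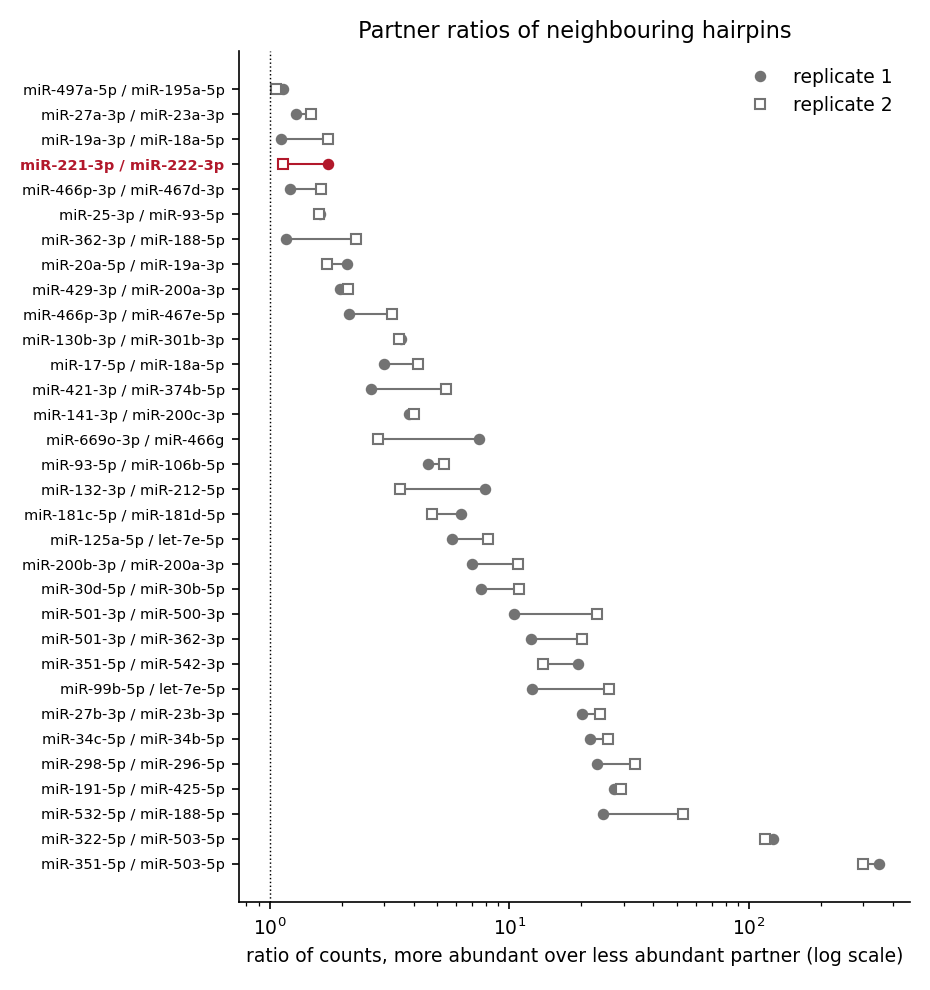
Ratio of counts of the more abundant over the less abundant partner (log scale) for 32 pairs of neighbouring hairpins, in replicate 1 (filled circles) and replicate 2 (open squares). The pair of miR-221-3p and miR-222-3p, in red, lies near 1, at 1.76 and 1.13.

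Both hairpins were dominated by their 3p arms, miR-222 more so than miR-221. For miR-221, the 3p arm held 91.1% of the counts of both arms in replicate 1 (90.8 to 91.3) and 85.2% in replicate 2 (84.9 to 85.5), a mean of 88.2% ± 4.12 (SD, n = 2). For miR-222 it held 98.3% (98.2 to 98.5) and 98.9% (98.8 to 99.0), a mean of 98.6% ± 0.421 (SD, n = 2). The 3p share was higher for miR-222 in both libraries, and the gap between the means was larger than either SD. Arm use moved in opposite directions between the libraries. The ratio of 3p to 5p counts of miR-221 was 10.2 in replicate 1 and 5.78 in replicate 2, a factor of 0.567 (0.545 to 0.589; Fisher's exact test, p = 6.83e-188). That of miR-222 was 59.1 and 92.5, a factor of 1.57 (1.37 to 1.79; Fisher's exact test, p = 4.32e-11). The partner ratios and arm ratios make 5 comparisons between the libraries, and after Benjamini-Hochberg adjustment over these 5 the largest p of Fisher's exact test was 4.32e-11.

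Among 176 hairpins with both arms named and at least 100 counts, 78 (44.3%) had a dominant 3p arm, and the dominant arm held a median of 97.2% of the counts. miR-221 lay below this median, with 50 hairpins less and 125 more dominated by 1 arm, and miR-222 above it, with 108 less and 67 more. The minor arm had at least 100 counts in 89 hairpins, whose log2 ratio of 3p to 5p counts differed between the libraries by a median of 0.29 in absolute terms. The difference, replicate 2 minus replicate 1, was -0.82 for miR-221, and 8 hairpins differed more. For miR-222 it was 0.65, and 18 differed more. In 33 of the 89 hairpins (37.1%), miR-221 and miR-222 included, the log2 ratios of the arms between the libraries had opposite signs, whether or not they passed a test. Both arms were called in opposite directions in 14 of the 89 (15.7%) by Fisher's exact test with Benjamini-Hochberg adjustment over all miRNAs, miR-221 and miR-222 among them. With TMM scaling there were 16 such hairpins and with DESeq2 scaling 15, with miR-221 but without miR-222, whose 5p arm was not called there.

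**Figure D4:**
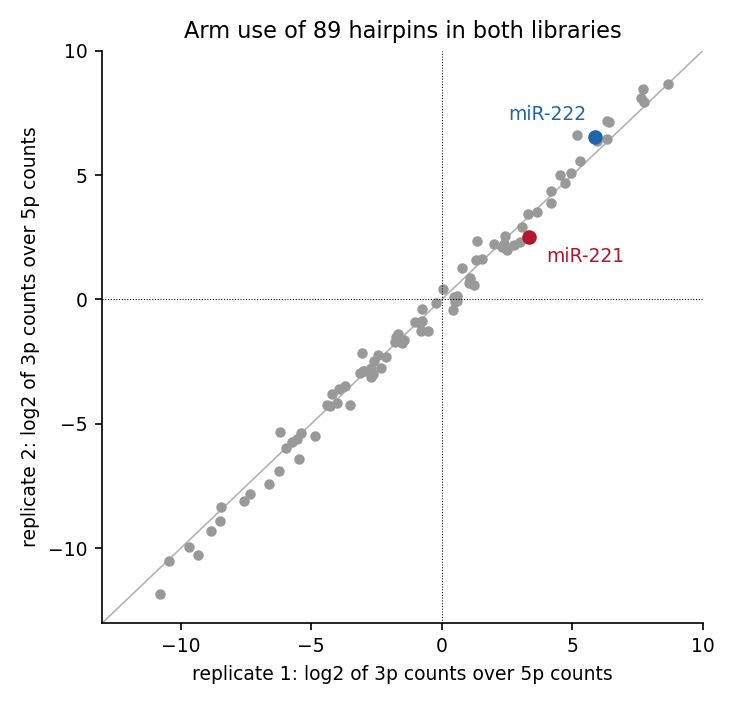
Log2 ratio of 3p to 5p counts in replicate 2 against replicate 1 for 89 hairpins whose minor arm had at least 100 counts, with the line of equality. miR-221 (red) lies below the line and miR-222 (blue) above it, at differences of -0.82 and 0.65.

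With library totals all 4 members differed between the libraries by more than counting error, 2 in each direction, and under TMM or DESeq2 scaling 3 of them did, without miR-222-5p. Across 588 miRNAs with at least 10 counts summed, Fisher's exact test with Benjamini-Hochberg adjustment at 0.05 called 44.2%, with 81 (13.8%) higher and 179 (30.4%) lower in replicate 2. Calls depended on depth, since 82.4% of the 170 miRNAs that reached 1000 counts over both libraries were called, as were the 3 members in that range. A call on these 3 is therefore near the background for miRNAs of their abundance. miR-221-3p was lower in replicate 2, with a log2 ratio of -0.29 (Fisher's exact test, Benjamini-Hochberg adjusted p = 3.47e-200), and miR-222-5p was lower at -0.30 (Fisher's exact test, adjusted p = 0.00647). miR-222-3p was higher in replicate 2 at 0.35 (Fisher's exact test, adjusted p = 2.51e-206) and miR-221-5p at 0.53 (Fisher's exact test, adjusted p = 7.77e-89). Each hairpin thus had 1 arm higher and 1 arm lower in replicate 2, and the 4 differences were 1.22-fold to 1.45-fold. Among the 448 miRNAs with at least 10 counts in each library, the log2 ratios had an SD of 0.55, and 244 were at least as far from 0 as miR-221-3p, 209 as miR-222-3p, 128 as miR-221-5p and 237 as miR-222-5p, the member itself included. Low counts widen this spread. Among the 170 miRNAs that reached 1000 counts over both libraries the SD was 0.43, and 74 were at least as far from 0 as miR-221-3p, 58 as miR-222-3p and 27 as miR-221-5p. The difference of miR-221-5p was thus larger than that of most abundant miRNAs, while the guides lay nearer the middle.

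The library totals place the median log2 ratio of these 448 miRNAs at -0.17, and miR-146a-5p alone took 2.76% of the counts in replicate 1 and 5.96% in replicate 2. Its part in the ratios was not tested. TMM scaling shifts every log2 ratio by 0.13 and DESeq2 scaling by 0.14. The DESeq2 size factor was 1 in each library, so DESeq2 scaling amounts to comparing the raw counts. Relative to the median, the log2 ratio was -0.11 for miR-221-3p, 0.52 for miR-222-3p, 0.71 for miR-221-5p and -0.12 for miR-222-5p. The directions of the 4 members were the same under both scalings, but miR-222-5p was no longer called, with Benjamini-Hochberg adjusted p = 0.169 (TMM) and 0.233 (DESeq2) by Fisher's exact test, against 0.00388 to 0.0112 under the other alternatives. The split of calls changed with the scaling, from 81 higher and 179 lower to 122 and 137 with TMM and 124 and 127 with DESeq2. The sum of both 3p arms, formed after the values of the arms were seen, was 1.03% of the counts in replicate 1 and 1.02% in replicate 2, a mean of 1.02% ± 0.0120 (SD, n = 2). Its log2 ratio was -0.02, but 0.11 under TMM and 0.12 under DESeq2 scaling. A sum of arms with opposite differences has to lie between them, so its small ratio is a description only.

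**Figure D5:**
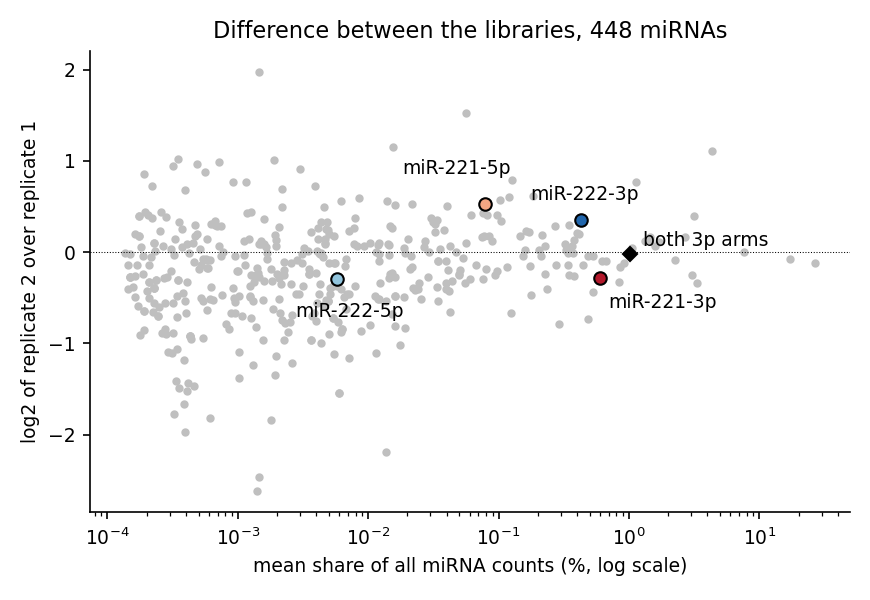
Log2 ratio of replicate 2 over replicate 1 against mean share (percent, log scale) for 448 miRNAs with at least 10 counts in each library (grey). The members (coloured) lie at -0.29, 0.35, 0.53 and -0.30, inside the cloud, and the sum of both 3p arms (black diamond) at -0.02.

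The guides can be set beside 13 miRNAs of haematopoietic lineages, of which 12 had counts in both libraries and were tested. In this list 3 were higher and 7 lower in replicate 2 by Fisher's exact test, beside 13.8% and 30.4% of all 588 miRNAs. Of the 12, 9 had at least 1000 counts over both libraries and 8 of these were called, near the 82.4% of all miRNAs in that range. TMM and DESeq2 scaling, applied to the list after the data were seen, each gave 4 higher and 7 lower, beside 20.7% and 23.3% of the 588 with TMM and 21.1% and 21.6% with DESeq2. The median log2 ratio was -0.39, against -0.16 over the 588. The list summed to 5.58% in replicate 1 and 8.40% in replicate 2, but without miR-146a-5p to 2.82% and 2.43%, so that this member alone set the direction. miR-146a-5p and miR-181a-5p (1.04% and 1.07%) had a higher share than miR-221-3p in both libraries. By mean share miR-223-3p and miR-142a-3p lay between miR-221-3p and miR-222-3p, but in replicate 2 both were below miR-222-3p. The guides of the cluster, which are not in this list, thus had higher mean shares than most of its members. By mean share miR-24-3p followed with 0.375% and 0.374%, about level with miR-222-3p in replicate 1, then miR-322-5p with 0.0793% and 0.0895%, miR-17-5p with 0.0613% and 0.0484%, and miR-20a-5p with 0.0475% and 0.0353%. miR-155-5p, which macrophages induce on activation, was at 0.00990% and 0.00444%, close to the rare arm miR-222-5p. miR-150-5p had 202 and 88 counts, miR-106a-5p 13 and 2, miR-451a 7 and 8, and miR-144-3p 2 and 0.

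Markers of cell types were read beside the label of the cells. The macrophage or myeloid list shares miR-223-3p, miR-142a-3p, miR-146a-5p and miR-155-5p with the haematopoietic list above, so it is not a separate check. All 6 macrophage or myeloid markers had counts in both libraries and summed to 7.72% and 9.74%, led in replicate 1 by miR-142a-5p (3.70% and 2.93%) and in replicate 2 by miR-146a-5p. By Fisher's exact test 1 of them, miR-146a-5p, was higher and 5 were lower in replicate 2, with library totals as with TMM or DESeq2 scaling. All 6 belong to the miRNAs with at least 1000 counts over both libraries, of which 82.4% were called with library totals and 85.3% with either scaling. Without miR-146a-5p the other 5 summed to 4.96% and 3.78%. The endothelial markers, both strands of miR-126a, summed to 458 counts (0.00625%) in replicate 1 and 374 counts (0.00462%) in replicate 2, led by miR-126a-5p. The 6 smooth muscle and fibroblast markers summed to 1755 counts (0.0240%) and 1307 counts (0.0161%), led by miR-143-3p with 1370 and 949 counts. Next in this list was miR-199a-3p with 280 and 262 counts, while miR-145a-5p had 12 and 11. The part of other cell types in the counts of the members was not tested. Epithelial markers summed to 1115 and 1338 counts, led by miR-200b-3p with 496 and 827, and without it to 619 and 511. Erythroid markers had 11 and 12 counts, led by miR-451a, and the lymphoid marker was miR-150-5p. Muscle markers had 0 and 6 counts, with miR-1a-3p and miR-206-3p at 0, and neuronal markers 12 and 11, with miR-124-3p at 0. The hepatic marker miR-122-5p had 0 counts in both libraries, with the same upper limits as miR-1928. By their sums, myeloid markers thus had more counts than the markers of each other cell type in both libraries. Single markers overlapped, since the myeloid miR-155-5p (725 and 359 counts) was below miR-143-3p in both libraries.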

How the data were processed

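Small RNA libraries of unstimulated BMDMs were analysed in 2 replicates of a single condition, and a further library of the study was not analysed here. After trimming, the authors aligned the reads to mouse stem-loops of miRBase using Bowtie and deposited raw counts per mature miRNA name, without normalization. The miRBase release, the number of mismatches and the treatment of multiply matching reads are not given in the sources used here. The labels also list DESeq2 among the processing tools, with no role. Ligation and PCR favour some sequences, so a ratio of counts between miRNAs is not a ratio of molecules.

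Shares were counts over library totals. Ratios within a library were tested by an exact binomial test and ratios between libraries by Fisher's exact test, all two-sided. Each miRNA with at least 10 counts summed was tested by Fisher's exact test with Benjamini-Hochberg adjustment at 0.05 (Python 3.11.15, SciPy 1.17.1). The procedure was run on simulated counts that held counting error alone, without further spread between libraries. That run therefore does not show how the procedure performs on libraries that differ by more than counting error. The log2 difference of arm ratios used a pseudocount of 0.5. Pairs were hairpins whose dominant arm is annotated at 1 locus, although reads may be shared with other names. Positions, sequences and hairpin pairs came from RefSeq (GRCm38.p6) and neighbouring genes from GENCODE, and 1623 of 1915 names matched a mature sequence.

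The alternatives were pooled reads, counts plus 1, TMM (edgeR 4.0.16) and DESeq2 1.42.0 scaling in R 4.3.3, other count minimums and distances, totals without miR-21a-5p, thinning to equal totals and each library alone. The sum of both 3p arms and the count of hairpins with opposite arms, with their alternatives, the other measures of closeness for pairs, pairs without shared counts, the scalings of the lists and their sums without the leading miRNA were chosen after seeing the data. The names in the text were the 4 members, names with their seed, the 2 neighbours on each side by mean share, the 3 hairpin pairs with ratios closest to and farthest from 1, the 5 highest X-linked miRNAs, miR-21a-5p, and lists of haematopoietic miRNAs and cell type markers. The members and lists were chosen with earlier results of these data known.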

Additional observations from a re-analysis of the deposited data

How the results depend on the processing

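Pooled reads and each library alone fall within 1 SD of the mean by construction, since the SD comes from the same 2 libraries. Of the 22 other alternative values of the shares, partner ratios and arm use, 17 did so. Most of these 17 could hardly have moved. TMM and DESeq2 scaling shift the libraries in opposite directions, so a mean share changes little. Dropping rare names or adding 1 to the counts also changes little. The 17 values are therefore weak evidence of robustness. Leaving miR-21a-5p out of the total raised the mean shares, by construction, to 0.820% (miR-221-3p), 0.581% (miR-222-3p), 0.108% (miR-221-5p) and 0.00787% (miR-222-5p). Summing both arms turned the 5p ratio into the hairpin ratio of 1.61. TMM and DESeq2 scaling kept the direction of each member, but the log2 ratio of miR-222-5p fell short of the threshold at -0.17 (TMM) and -0.15 (DESeq2). Its adjusted p by Fisher's exact test was 0.169 and 0.233 there and 0.00388 to 0.0112 under the other alternatives. The log2 ratio of both 3p arms summed turned from -0.02 to 0.11 (TMM) and 0.12 (DESeq2), and 122 and 124 miRNAs were higher in replicate 2 instead of 81. These changes follow from the common shift of all ratios. Without miR-146a-5p, the log2 ratio of the haematopoietic sum turned from 0.59 to -0.21 and that of the myeloid sum from 0.33 to -0.39. Without miR-200b-3p that of the epithelial sum turned from 0.12 to -0.42. The pairs with a ratio closer to 1 than miR-221-3p over miR-222-3p numbered 3, but 1 to 6 in a single library. With at least 1000 counts fewer pairs and hairpins were compared: 5 pairs then changed more than miR-221-3p over miR-222-3p, 1 hairpin had a larger change of arm ratio than miR-221, and 82 had a higher dominant share. With at least 20 counts, 21 hairpins changed more than miR-221 and 37 more than miR-222. The minimum of 1000 counts gave no arm change for miR-222, whose 5p arm is below it. No paired analysis was possible because both libraries belong to one condition. The number of libraries limits the precision more than depth does, since the counting intervals of the 3 more abundant members were much narrower than the difference between the libraries.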
